A study of Mus musculus with 37 samples.

Results

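Primordial germ cells are the founders of eggs and sperm. In the mouse they are set aside in the posterior epiblast in answer to BMP and WNT signals, gather at the base of the allantois, enter the hindgut endoderm and later migrate to the gonads. A small set of genes marks and makes them. The transcription factors PRDM1, PRDM14 and TFAP2C specify them, DPPA3 and the membrane protein IFITM3 mark them early, the RNA-binding proteins NANOS3 and DND1 and the receptor KIT keep them alive and moving, and they hold on to the pluripotency factors POU5F1 (OCT4) and NANOG. POU5F1 is also made by the whole epiblast and is lost from somatic cells as segments form. Described here are these 10 genes (Pou5f1, Nanog, Dppa3, Nanos3, Dnd1, Tfap2c, Prdm1, Prdm14, Kit and Ifitm3) in tailbud tissue, taken by their symbols from the 35542 genes of a count table over 37 embryos. Each symbol matched 1 row.

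The embryos were dissected at embryonic day 8 to 8.5 with 6 to 11 somites, and the tissue behind the last formed somite was sequenced as 1 poly(A) library per embryo. Embryos of both groups had C57BL/6 mothers and Castaneus (Cast) fathers that were Smchd1 +/+. Smchd1wt embryos (Smchd1 fl/+) came from Smchd1 fl/fl mothers without the MMTV-Cre transgene. Smchd1matΔ embryos (Smchd1 del/+) came from Smchd1 del/fl mothers with MMTV-Cre T/+, a transgene driven by the mouse mammary tumour virus promoter that also acts in oocytes, so that both the oocyte's supply of SMCHD1, a chromatin protein of gene silencing, and the embryo's maternal copy were missing, while the paternal copy was intact. These 2 losses cannot be told apart in this design. There were 21 Smchd1wt embryos (13 female and 8 male) and 16 Smchd1matΔ embryos (11 female and 5 male). From 6 to 11 somites the Smchd1wt groups held 4, 4, 3, 3, 4 and 3 embryos and the Smchd1matΔ groups 4, 3, 2, 2, 3 and 2. All embryos at 6 somites were female, and so were all Smchd1matΔ embryos at 8 and 9 somites.

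Counted in units of 1e6 reads, libraries held 3.06 to 80.6 (median 12) in Smchd1wt and 0.916 to 30.2 (median 14.2) in Smchd1matΔ embryos. The shallowest library was Smchd1matΔ replicate 3 at 6 somites. The ribosomal RNA locus took 2.77% and 1.82% of the counts of Smchd1matΔ replicates 1 and 2 at 6 somites. Smchd1 itself had 105 to 204 CPM (counts per 1e6 counts, after TMM scaling) in Smchd1wt and 64.0 to 112 CPM in Smchd1matΔ embryos, a log2 difference of -0.74 at matched somite number (SE 0.0748, adjusted p = 1.45e-07 by the quasi-likelihood test of edgeR, used for every fit below). The 10 tailbud markers summed to 683 to 1798 CPM and all of them passed the filter on low counts. Markers of neighbouring tissues were in the same libraries. The 9 gut endoderm markers summed to 221 to 542 CPM, the 7 surface ectoderm markers to 257 to 847 CPM, the 4 allantois markers to 51.6 to 354 CPM and the 8 visceral endoderm markers to 8.21 to 4524 CPM. In bulk tissue fewer cells of a type and less RNA per cell cannot be told apart, and this holds for every level below.

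Pou5f1 was the member that fell over stage in both genotypes and under every setting tried, so its promoter is shown first, beside that of Nanog, the other pluripotency factor of the set, which did not follow it. The bases come from the RefSeq promoter table (build GRCm38.p6), on the plus strand, 5′ to 3′, and end at the last base before the deposited start of the gene. For Nanog that is also the RefSeq start. For Pou5f1 the deposited start, 35506018, lies before the RefSeq start, 35506032, so 236 of the table's 250 bases are printed. Capitals mark 4 motifs searched on both strands: AGGTCA, the core bound by nuclear receptors; GGGCGG, the GC box; CATTGT, the core bound by SOX proteins; and ATGCAAA, the core bound by POU proteins.
Pou5f1 (chr17:35505782-35506017): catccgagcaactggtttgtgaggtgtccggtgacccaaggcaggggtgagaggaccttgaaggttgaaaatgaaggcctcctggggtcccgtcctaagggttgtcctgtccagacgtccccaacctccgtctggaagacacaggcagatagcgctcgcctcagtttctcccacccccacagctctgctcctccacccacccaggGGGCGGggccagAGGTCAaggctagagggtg
Nanog (chr6:122707239-122707488): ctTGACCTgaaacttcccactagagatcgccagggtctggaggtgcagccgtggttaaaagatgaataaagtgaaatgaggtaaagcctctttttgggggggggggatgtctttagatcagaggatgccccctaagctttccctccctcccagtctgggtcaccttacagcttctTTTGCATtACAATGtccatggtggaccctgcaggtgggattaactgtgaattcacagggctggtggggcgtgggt
The Pou5f1 window held the GC box 45 bases and AGGTCA 33 bases before the RefSeq start, without overlap. The Nanog window held the POU core 75 bases and the SOX core 67 bases before its start, side by side on the other strand, and a further AGGTCA on the other strand 248 bases before it. Among 32851 promoter windows of 250 bases, 14.0% held AGGTCA, 32.7% the GC box, 10.7% the SOX core and 4.12% the POU core, and a match is a description of the letters, not a shown binding site. The table also held a further window for Pou5f1 (RefSeq start 35508807) and for Nanog (start 122707565), which are not printed. That of Pou5f1 held the SOX core 158 bases before its start, on the other strand. That of Nanog held the POU core 151 bases and the SOX core 143 bases before its start, also on the other strand. Windows for Nanos3, Prdm1, Kit and Ifitm3 were held too and are not printed. It gave none for Dppa3, Tfap2c, Prdm14 and Dnd1.

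Levels between genes were compared per kilobase of exon (CPM divided by exon length). Ifitm3 was highest, with a median of 15.4 over the 37 embryos (11.7 to 24.5), and exceeded Pou5f1 in 34 of 37 embryos. Pou5f1 followed with 7.88 (1.05 to 42.1) and Kit with 7.02 (4.77 to 11.2). Pou5f1 was higher in 19 of 37 embryos, and the order of this pair turned with stage. In Smchd1wt embryos of 6-7 somites Pou5f1 had 8.78 to 16.8 and Kit 6.02 to 8.54. At 10-11 somites their medians were 2.75 and 8.07. The medians in Smchd1matΔ embryos were 15.7 and 6.33 at 6-7 somites and 3.16 and 6.35 at 10-11 somites. Kit was above Prdm1 in all 37. Prdm1 (2.22), Tfap2c (2.17) and Dppa3 (1.97) stood together, with Prdm1 above Tfap2c in 20 embryos and Tfap2c above Dppa3 in 24. Dnd1 had a median of 1.08 and was below Dppa3 in 33 embryos. Nanog (0.384) and Prdm14 (0.341) were near each other, Nanog being higher in 20 embryos, and Nanos3 was lowest at 0.112.

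**Figure D1:**
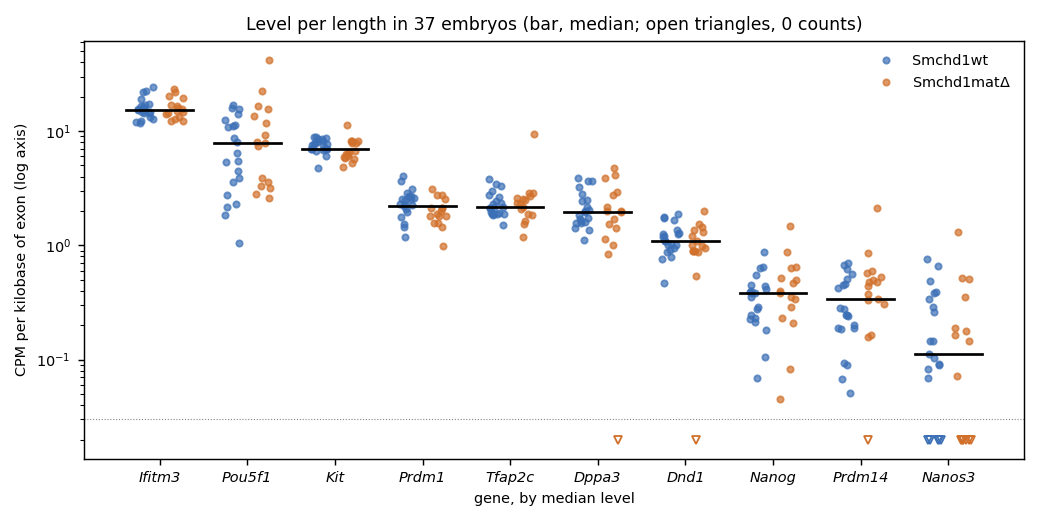
Level of each gene per kilobase of exon in 37 embryos, on a log axis, by genotype, with black bars at the median over all embryos and open triangles, below the dotted line, for libraries with 0 counts. Ifitm3, Pou5f1 and Kit are at the top with medians of 15.4, 7.88 and 7.02, and Nanos3 is at the bottom with 12 of 37 libraries at 0 counts.

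These levels rested on unequal numbers of reads. Kit had 35071 counts over all embryos, Pou5f1 9367, Prdm1 6746, Ifitm3 5915 and Tfap2c 4730. Dnd1 had 1498, Dppa3 988, Prdm14 523, Nanog 450 and Nanos3 93. With a median of 11 Nanog counts and 10 Prdm14 counts in an embryo, single embryos were imprecise. Counting intervals cover counting error only, since the reads carry no molecular identifiers. Within groups of the same stage and genotype, the chi-square statistic of the counts per degree of freedom was 2.70 for Dnd1 and between 3.05 and 3.74 for Nanos3, Nanog and Dppa3, and it reached 40.4 for Pou5f1, where 1 would be counting error alone. Values above 1 are not particular to these genes. Taken over many genes at once, pairs of libraries of a group differed by at least 5.12 per degree of freedom. The statistic also grows with the number of counts, so that it does not rank the members by spread.

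Pou5f1, the POU-domain factor of pluripotent cells, fell with somite number in both genotypes. At 6 somites it had 25.3, 27.9, 35.7 and 37.7 CPM in the 4 Smchd1wt embryos, and at 7 somites 19.7, 24.5, 31.5 and 35.0 CPM. The 8-somite embryos had 8.02, 14.4 and 24.9 CPM and the 9-somite embryos 5.13, 12.0 and 12.3 CPM. The lowest Smchd1wt embryo up to 7 somites had 19.7 CPM, and 1 of 6 at 8 and 9 somites was above that. This limit was read from the same values and is no test of a step. Of the later Smchd1wt embryos, those at 10 somites had 4.86, 6.17, 10.2 and 17.9 CPM and those at 11 somites 2.37, 4.18 and 8.79 CPM.

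The Smchd1matΔ embryos followed the same course. They had 30.2, 37.3, 50.1 and 94.7 CPM of Pou5f1 at 6 somites and 17.7, 26.7 and 35.2 CPM at 7 somites. At 8 somites the values were 16.8 and 17.9 CPM and at 9 somites 8.04 and 20.9 CPM. By 10 somites they had come down to 6.36, 7.11 and 8.66 CPM, and at 11 somites to 5.80 and 7.50 CPM. In neither genotype did the 6-somite and 11-somite embryos overlap in Pou5f1, and the medians differed 7.60-fold in Smchd1wt and 6.57-fold in Smchd1matΔ embryos.

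The slope of Pou5f1 on somite number was -0.53 on the log2 scale per somite in the 21 Smchd1wt embryos (SE 0.070, adjusted p = 5.87e-05), which over 5 somite steps is a level 6.30-fold lower (95% interval 3.78 to 10.5). In the 16 Smchd1matΔ embryos, which share no sample with the first fit, it was -0.59 (SE 0.066, adjusted p = 5.11e-05), or 7.63-fold lower over the 5 steps (4.65 to 12.5). It was the 1 member of the 9 tested that fell past the threshold in each fit, and no member rose. Among all genes, 3.51% fell in the Smchd1wt fit (532 of 15148) and 1.14% in the Smchd1matΔ fit (177 of 15477). By p-value 22 genes stood before Pou5f1 in the first fit and 10 in the second, and 63 and 17 of the called genes had a steeper fall.

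**Figure D2:**
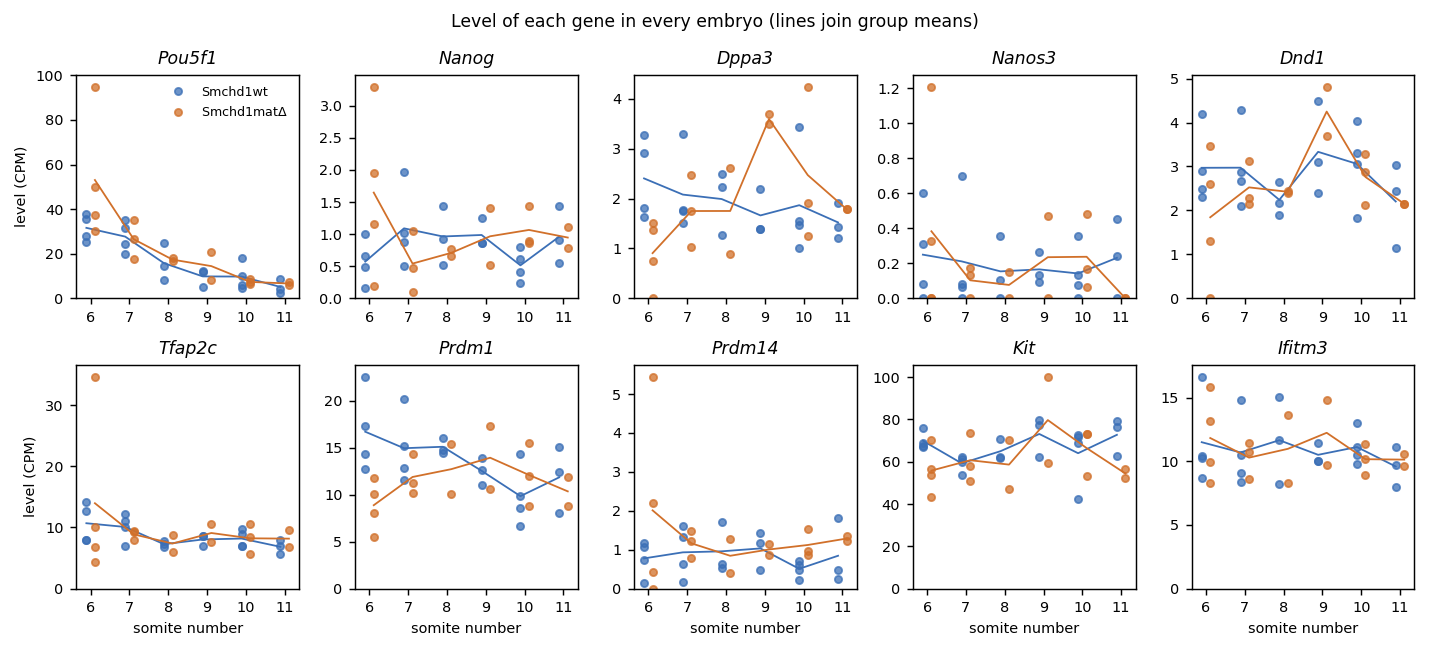
Level (CPM) of each of the 10 genes in every embryo against somite number, 1 point per embryo, with lines joining the means of each stage and genotype group. Pou5f1 declines from 25.3 to 94.7 CPM at 6 somites to 2.37 to 8.79 CPM at 11 somites, and no other member falls as far.

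The decline of Pou5f1 was not ascribed to 1 interval. Between 6-7 and 8-9 somites it changed by -1.30 on the log2 scale in Smchd1wt embryos (SE 0.34, unadjusted p = 9.48e-04, adjusted p = 0.271), and between 8-9 and 10-11 somites by -0.68 (SE 0.35, adjusted p = 1). No gene passed the threshold in either step by edgeR (0.0% of 15148 genes for each), where 7.06% and 4.18% had an unadjusted p under 0.05. The early step had 2 members at that level, Pou5f1 and Tfap2c (-0.44, SE 0.16, unadjusted p = 0.0138, adjusted p = 0.560), and the late step had none. DESeq2 called 45 genes in the early and 0 in the late step, with no member among them.

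The difference in Pou5f1 slope between genotypes was -0.10 (95% interval -0.31 to 0.11, adjusted p = 1). This interval bounds how far the decline could differ, and does not show that it was equal. Without the 2 libraries rich in ribosomal RNA the difference was 0.01. Gm19553, an antisense transcript that shares 317 exon bases with Pou5f1 on the other strand, was among the 3 genes most like it over embryos (rho = 0.737). The counts did not use strand, and the reads expected from Pou5f1 over the shared bases came to 1321 of the 1372 counts of Gm19553, so that these genes were not measured apart. The reverse share, reads of Gm19553 within the Pou5f1 counts, could reach 9.40%.

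Nanog, the homeobox factor that works beside POU5F1, did not fall with it. It had 0.155 to 1.97 CPM (median 0.856) in Smchd1wt and 0.102 to 3.29 CPM (median 0.877) in Smchd1matΔ embryos, with at least 1 count in all 37 libraries. The highest value rests on 3 counts in the shallowest library. Its slope was 0.02 per somite in Smchd1wt (95% interval -0.18 to 0.22, adjusted p = 0.920) and 0.06 in Smchd1matΔ embryos (-0.24 to 0.36, adjusted p = 0.886). The lower bounds, a fall of 0.18 and 0.24 on the log2 scale per somite, lie above the slope of Pou5f1 in the same fits. At 6 and at 11 somites the Nanog values overlapped in both genotypes, and the sign of its Smchd1wt slope changed with the embryo left out (-0.03 to 0.06).

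**Figure D3:**
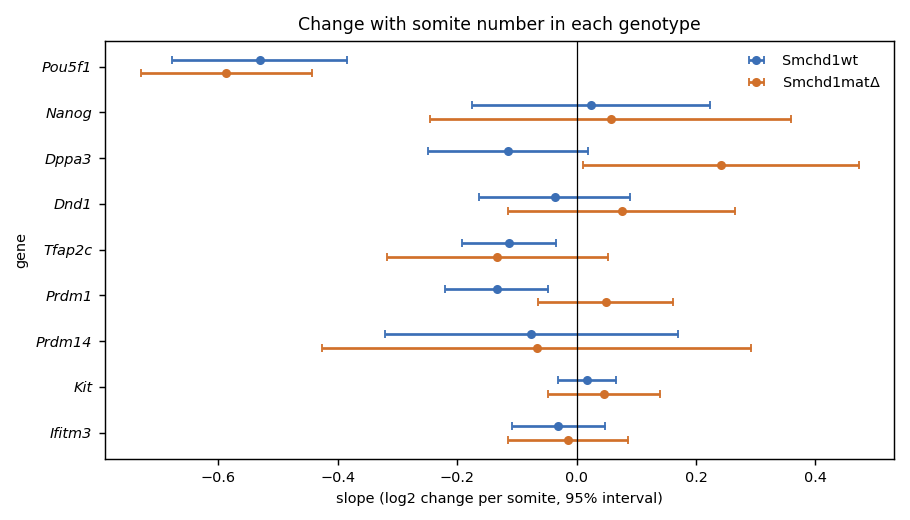
Slope on somite number (log2 change per somite) of the 9 members that passed the filter, with 95% intervals from the edgeR fits, in Smchd1wt and Smchd1matΔ embryos. Pou5f1 stands at -0.53 and -0.59, and the other members lie between -0.13 and 0.24.

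The 3 specifiers of germ cell fate were present at every stage. Prdm1, a zinc-finger repressor that shuts off somatic genes in nascent germ cells, had 12.7, 14.3, 17.3 and 22.5 CPM in the Smchd1wt embryos of 6 somites and 8.03, 12.4 and 15.1 CPM in those of 11. Its slope in Smchd1wt embryos was -0.13 per somite (SE 0.041, unadjusted p = 0.00343, adjusted p = 0.0511), just outside the threshold. DESeq2 placed it inside (adjusted p = 0.0194), and so did 6 of the 21 fits that each left out 1 embryo. In Smchd1matΔ embryos the values were 5.48, 8.08, 10.1 and 11.8 CPM at 6 somites, all below the 4 Smchd1wt embryos, as were 2.29% of all genes, the lowest being 5 counts in the shallowest library, and 8.81 and 11.9 CPM at 11. The slope there was 0.05 (SE 0.053, adjusted p = 0.688).

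Tfap2c, the AP-2 gamma factor, had 7.97, 7.98, 12.7 and 14.1 CPM at 6 somites and 5.60, 6.99 and 7.89 CPM at 11 somites in Smchd1wt embryos, without overlap. Its slope was -0.11 per somite (SE 0.038, adjusted p = 0.0729), and DESeq2 gave an adjusted p of 0.0438. By DESeq2, then, 3 members fell in Smchd1wt embryos (Pou5f1, Prdm1 and Tfap2c), where 5.4% of all genes fell by that tool. By non-overlap of 6 and 11 somites, 2 of 9 members were lower at 11 somites in Smchd1wt embryos (Pou5f1 and Tfap2c), against 9.61% of all genes. Non-overlap in Smchd1matΔ embryos, with 4 embryos against 2, was found for 1 member that was lower (Pou5f1, against 7.89% of all genes) and 1 that was higher (Dppa3, against 11.2%). The latter is not established, since its 6-somite values include the 0 of the shallowest library, where 3 counts would have been 3.29 CPM. Tfap2c had a slope of -0.13 in Smchd1matΔ embryos (SE 0.086, adjusted p = 0.454), which became 0.03 without the 2 libraries rich in ribosomal RNA.

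Prdm14, a partner of the same programme, had 0.131 to 1.80 CPM (median 0.633) in Smchd1wt and 0 to 5.43 CPM (median 1.18) in Smchd1matΔ embryos. The library at 0 was Smchd1matΔ replicate 2 at 6 somites, where 3 counts would have been 0.216 CPM. Slopes were -0.08 (95% interval -0.32 to 0.17) and -0.07 (-0.43 to 0.29), intervals that are wide and hold 0.

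Among the markers of the cells themselves, Dppa3, also called Stella, had 1.002 to 3.44 CPM (median 1.74) in Smchd1wt embryos and 0 to 4.23 CPM (median 1.77) in Smchd1matΔ embryos. Smchd1wt embryos at 6 somites had 1.63, 1.81, 2.91 and 3.27 CPM, where the Smchd1matΔ embryos had 0, 0.746, 1.37 and 1.51 CPM. Among all genes, 2.29% were lower without overlap in the Smchd1matΔ embryos of this stage. The library at 0 was again the shallowest, where 3 counts would have been 3.29 CPM, so its 0 is no measured absence. At 9 somites the values were 1.39, 1.40 and 2.20 CPM in Smchd1wt and 3.49 and 3.69 CPM in Smchd1matΔ embryos. The share of all genes that separate in this way at 9 somites was not counted. With so few embryos this separation is not established as a difference. At the other stages the genotypes overlapped. Smchd1wt and Smchd1matΔ embryos had 1.52 to 3.29 and 1.02 to 2.47 CPM at 7 somites, and 1.26 to 2.49 and 0.90 to 2.61 CPM at 8. They had 1.002 to 3.44 and 1.26 to 4.23 CPM at 10 somites, and 1.22 to 1.92 and 1.78 to 1.79 CPM at 11. The slopes were -0.12 per somite in Smchd1wt (SE 0.064, adjusted p = 0.307) and 0.24 in Smchd1matΔ embryos (SE 0.107, adjusted p = 0.246).

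Ifitm3, an interferon-induced membrane protein named fragilis in germ cells, kept within 7.94 to 16.6 CPM in Smchd1wt and 8.29 to 15.9 CPM in Smchd1matΔ embryos. Slopes of -0.03 (95% interval -0.11 to 0.05) and -0.01 (-0.12 to 0.09) bound its change per somite. Its near relatives Ifitm1 and Ifitm2 had medians of 119 and 84.3 CPM, and reads shared between these similar genes may have been placed in any of them.

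Of the survival factors, Kit, the receptor for stem cell factor, is also made by cells outside the germ line. It had 42.5 to 79.8 CPM (median 67.7) in Smchd1wt and 43.1 to 99.9 CPM (median 57.3) in Smchd1matΔ embryos, with a coefficient of variation of 17.9% over 37 embryos, near the 20.8% of Ifitm3 and below the 84.9% of Pou5f1. Its slopes were 0.02 (95% interval -0.03 to 0.07) and 0.05 (-0.05 to 0.14). Kitl, which encodes the ligand, had 82.9 to 169 CPM.

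Dnd1 had 1.13 to 4.50 CPM in Smchd1wt and 0 to 4.80 CPM in Smchd1matΔ embryos, the 0 being the shallowest library. Slopes were -0.04 (adjusted p = 0.778) and 0.08 (adjusted p = 0.713). Dnd1 shares 140 exon bases with Wdr55, a gene on the other strand with 34530 counts. The reads expected from Wdr55 over those bases, 2633, exceed the 1498 counts of Dnd1, so that the Dnd1 counts could all be those of Wdr55 and its values are uncertain throughout.

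Nanos3, an RNA-binding protein that germ cells need to survive, was the rarest member. It had 1 or more counts in 16 of 21 Smchd1wt and 9 of 16 Smchd1matΔ embryos, with at most 11 counts in a library and, where it had 0, a limit of 3 counts that lay at 0.179 to 3.29 CPM, and was not tested, because it did not pass the filter on low counts in any fit. Pooled over embryos, it had 0.207 CPM at 6-7, 0.157 at 8-9 and 0.148 at 10-11 somites in Smchd1wt embryos, with exact 95% Poisson intervals of 0.118 to 0.336, 0.0997 to 0.236 and 0.0809 to 0.248. In Smchd1matΔ embryos the pooled values were 0.241 (0.145 to 0.376), 0.172 (0.0824 to 0.316) and 0.128 CPM (0.0639 to 0.229). These intervals, which cover counting error only, overlap at all stages and between genotypes, so a change in Nanos3 was not detectable at this depth.

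Genotype was compared at matched somite number, with sex as a covariate. Over all stages no member passed the threshold and none had an unadjusted p under 0.05, where 0.0125% of 15978 genes passed and 5.67% had such a p. Pou5f1 differed by 0.25 on the log2 scale, Smchd1matΔ minus Smchd1wt (95% interval -0.15 to 0.64, adjusted p = 0.890), and Prdm14 by 0.60 (-0.15 to 1.35, adjusted p = 0.874). The difference for Prdm1 was -0.21 (-0.47 to 0.05, adjusted p = 0.874) and for Kit -0.12 (-0.29 to 0.04, adjusted p = 0.877). Nanog (0.21), Tfap2c (0.14), Dppa3 (0.02), Ifitm3 (0.01) and Dnd1 (-0.09) had adjusted p-values of 0.919 to 0.999. The intervals for Kit and Ifitm3 (-0.20 to 0.21) leave room for small differences alone, while those for Prdm14 and Nanog (-0.41 to 0.83) also hold differences of over 0.5 on the log2 scale.

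**Figure D4:**
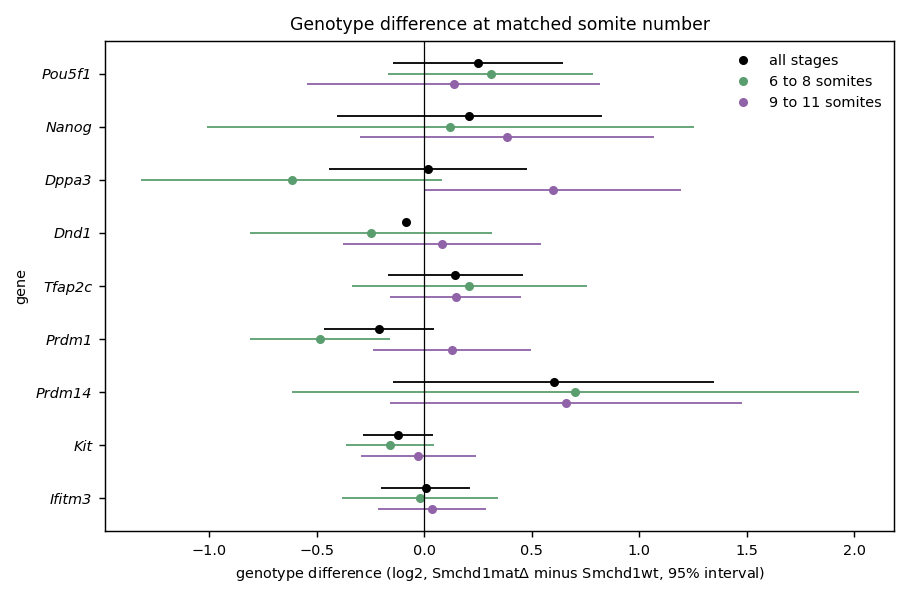
Genotype difference (log2, Smchd1matΔ minus Smchd1wt) of the 9 tested members over all stages, at 6 to 8 somites and at 9 to 11 somites, with 95% intervals from the edgeR fits (none is drawn for Dnd1 over all stages, where the test's p-value does not follow from the fitted interval). Prdm1 stands at -0.49 and Dppa3 at -0.62 in the early window, and at 0.13 and 0.60 in the late window. Intervals use residual degrees of freedom and can hold 0 where the unadjusted p of the test is under 0.05, as for Dppa3 in the late window.

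In the window of 6 to 8 somites no member passed the threshold (0.00639% of 15652 genes did). Prdm1 alone had an unadjusted p under 0.05, as 7.77% of all genes had, with a difference of -0.49 (SE 0.15, unadjusted p = 0.00436, adjusted p = 0.471). Dppa3 differed by -0.62 (SE 0.33, adjusted p = 0.666), Pou5f1 by 0.31 (SE 0.22, adjusted p = 0.763) and Prdm14 by 0.70 (SE 0.62, adjusted p = 0.812). Without the 2 libraries rich in ribosomal RNA the value for Pou5f1 was -0.05, and that for Prdm1 was -0.39. At 9 to 11 somites no member passed either (0.00635% of 15757 genes did), and Dppa3 alone had an unadjusted p under 0.05, as 1.88% of genes had, with 0.60 (SE 0.27, unadjusted p = 0.0440, adjusted p = 1). Prdm1 differed there by 0.13 (SE 0.17), Pou5f1 by 0.14 (SE 0.31) and Prdm14 by 0.66 (SE 0.38), each with an adjusted p of 1.

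The fitted differences of Dppa3 and Prdm1 were below 0 in the early window and above 0 in the late window. The difference in slope between genotypes was 0.32 per somite for Dppa3 (SE 0.12, unadjusted p = 0.0129) and 0.17 for Prdm1 (SE 0.067, unadjusted p = 0.0126). Neither passed over all genes (adjusted p = 1 for each), and no gene did by edgeR or DESeq2 (0.0%), while 3.92% of 15978 genes, and these 2 of the 9 members, had an unadjusted p under 0.05. Both differences kept their sign in all 9 other settings and whichever embryo was left out, with ranges of 0.27 to 0.47 for Dppa3 and 0.14 to 0.24 for Prdm1. These refits reuse the same embryos and are no further evidence of a difference.

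A single embryo, Smchd1matΔ replicate 1 at 6 somites, held the highest value of Pou5f1 (94.7 CPM, the next being 50.1), Tfap2c (34.5, next 14.1), Prdm14 (5.43, next 2.19) and Nanos3 (1.21, next 0.697) of all 37. Its Dppa3 (1.51 CPM), Prdm1 (10.1), Kit (53.5) and Ifitm3 (8.29) were within the range of the other embryos. So were its Nanog and Dnd1, whose highest values (3.29 and 4.80 CPM) were in other embryos. The same library had the highest summed markers of surface ectoderm (847 CPM against a median of 383), allantois (354 against 144) and trophoblast (35.6 against 19.6) and the largest share of ribosomal RNA, and their part in these values was not tested. TFAP2C is also made in surface ectoderm and trophoblast.

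Whether members varied together between embryos was asked on log2 CPM (prior count 2) after removing the mean of each stage and genotype group. Of 36 pairs among 9 members, none passed Benjamini-Hochberg adjustment in a two-sided permutation test with 100000 permutations of embryos within groups, and 3 had an unadjusted p under 0.05 by Pearson's r. Those were Pou5f1 with Tfap2c (r = 0.461, rho = 0.465, permutation p = 0.00691 and 0.00570, adjusted p = 0.198 and 0.103), Pou5f1 with Dppa3 (r = 0.446, rho = 0.478, permutation p = 0.0165 and 0.00571, adjusted p = 0.198 and 0.103) and Dppa3 with Dnd1 (r = 0.730, rho = 0.499, permutation p = 0.0126 and 0.00917, adjusted p = 0.198 and 0.110). Without the 2 embryos farthest from the median of the gene named first, r was 0.414, 0.322 and 0.373. With 1 embryo left out, r ranged from 0.31 to 0.54, from 0.37 to 0.51 and from 0.30 to 0.77. Dppa3 and Dnd1 both had 0 counts in the shallowest library, and the Dnd1 counts could all be those of Wdr55. The median r over all pairs was 0.164, and 25 of the 36 were above 0. When the 2 shallowest libraries were left out, 4 pairs passed, with r of 0.501 for Pou5f1 with Tfap2c, 0.594 for Pou5f1 with Dppa3, 0.691 for Dnd1 with Prdm14 and 0.630 for Prdm1 with Kit.

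**Figure D5:**
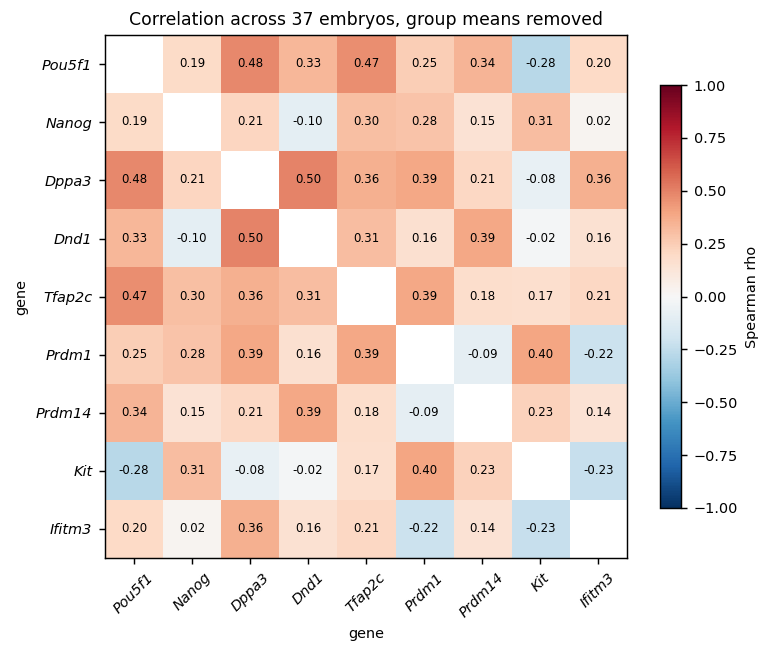
Spearman correlation of log2 CPM between the 9 tested members over 37 embryos, after subtracting the mean of each stage and genotype group. The highest rho, 0.499, is that of Dppa3 with Dnd1 and the lowest, -0.275, that of Pou5f1 with Kit. The Dnd1 counts could all be those of Wdr55.

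The genes most like each member over the 37 embryos, by Spearman's rho on the same values, were no other members. They were Hspb1 (0.749) and Oat (0.749) for Pou5f1 beside Gm19553, A730089K16Rik (0.753), Dclre1b (0.662) and 2310031A07Rik (0.630) for Nanog, and Cep44 (0.835), Hotairm1 (0.742) and Apip (0.731) for Dppa3. Kit went with Wnt5a (0.815), Dgkk (0.803) and Fstl1 (0.788), and Ifitm3 with Alyref (0.806), Brms1 (0.784) and Rpl41 (0.767). Prdm1 went with Tube1 (0.744), Adcyap1r1 (0.727) and Gzmc (0.705), Tfap2c with Prl3d2 (0.707), Slc6a12 (0.700) and Htra1 (0.667), Prdm14 with Aimp1 (0.652), Pycard (0.634) and Bend5 (0.625), and Dnd1 with Tmem59l (0.706), Crym (0.701) and Gm29094 (0.687). Of these, Gzmc, Prl3d2 and Slc6a12 had medians under 0.1 CPM, so that their values rest on few counts. What their rho reflects was not tested. All genes of an embryo share its depth and dissection, and the closest of 15978 genes can be expected to have a high rho.

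The other genes of the germ line and of pluripotency were read from lists. Of 19 other germ cell genes, 10 were tested in the Smchd1wt slope fit and 0 passed, with a median slope of -0.04 against -0.002 over all genes; the smallest p-values were those of Cbfa2t2 (0.05, adjusted p = 0.132) and Stk31 (-0.14, adjusted p = 0.265). In Smchd1matΔ embryos 11 were tested and 0 passed. Of the 19, 8 were below the filter of the fit over all stages. Dazl had 42 counts over all 37 libraries, Mael 19, Nanos2 22, Rhox5 16, and Rhox6 and Rhox9 1 each, beside Dppa5a (189 counts) and Dmrt1 (137). The other 11 passed it, among them the germ cell genes Ddx4 (median 2.11 CPM), Sycp3 (1.33), Stk31 (1.59), Tdrd7 (3.80) and Piwil2 (0.464), and genes with wider expression such as Alpl (39.7) and Elavl2 (26.1).

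Of the 10 naive pluripotency genes 9 were tested. With somite number 3 of them fell and 1 rose in Smchd1wt embryos, where 3.51% of all genes fell and 3.13% rose, and 0 of 9 passed in Smchd1matΔ embryos, where 1.14% fell and 1.93% rose. Their median slope was -0.14 in Smchd1wt and -0.05 in Smchd1matΔ embryos. Klf5 (-0.30, adjusted p = 0.00151), Tfcp2l1 (-0.41, adjusted p = 0.00856) and Tbx3 (-0.13, adjusted p = 0.0400) fell, and Klf2 (0.50, adjusted p = 0.0212) rose. These factors are also made outside pluripotent cells. Nr0b1 had 11 counts in all. Among 18 epiblast genes, 10 were tested and 2 fell, the DNA methyltransferase Dnmt3b (-0.10, adjusted p = 0.00373) and L1td1 (-0.31, adjusted p = 0.0478), with a median of -0.03, while in Smchd1matΔ embryos 12 were tested and Dnmt3b alone fell. The list summed to 1536 to 2309 CPM, the largest part being Lin28a (median 1374 CPM). Of its genes, 12 passed the filter of the fit over all stages. They ran from Lin28a, Trim71 (241), Sall4 (212) and Sox2 (30.7) to Utf1 (0.925), Nodal (0.616) and Pou3f1 (0.302). The 6 below the filter were Fgf5 (34 counts over all libraries), Foxd3 (9), Tdgf1 (62), Dppa4 (30), Otx2 (137) and Dppa2 (125).

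The signals that induce and guide germ cells were expressed throughout. All 11 were tested, with a median slope of -0.01 in Smchd1wt embryos, and 1 rose there, where 3.13% of all genes rose. It was Cxcl12, which encodes the chemokine that migrating germ cells follow (0.13, adjusted p = 0.00524). Cxcl12 was also the 1 of these 11 that rose in Smchd1matΔ embryos, where 1.93% of all genes rose. A count of 1 among 11 genes is not read as a result about the list. No gene of these lists passed in the genotype fit over all stages, where the 2 with the smallest p-value were Ifitm1 and Alpl among other germ cell genes, Fgf4 and Klf2 among naive genes, Nodal and Sox2 among epiblast genes, and Cxcl12 and Kitl among the signals.

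Markers of the tissues around the tailbud moved with stage beside Pou5f1, and their part in its fall was not tested. The counts below stand beside 3.51% of all genes that fell and 3.13% that rose in the same fit. Of the 9 gut endoderm markers, the tissue that germ cells enter, 5 fell and 1 rose in Smchd1wt embryos, Trh (-0.43), Nepn (-0.50), Spink1 (-0.59), Cdh1 (-0.15) and Sox17 (-0.13) falling and Foxa1 (0.15) rising. Their sum had a median of 375 CPM at 6-7 somites (323 to 465) and of 248 CPM at 10-11 somites (221 to 481). Of 8 visceral endoderm markers 2 fell, Apob (-0.78) and Ttr (-0.65), and their sum spanned 469 to 3212 CPM at 6-7 and 8.21 to 3509 CPM at 10-11 somites. Of 8 erythroid and blood markers 2 rose, Hbb-y (0.98) and Tal1 (0.18), with sums of 50.4 to 1479 CPM at 6-7 and 153 to 3882 CPM at 10-11 somites. Of 6 endothelial markers 3 rose, Esam (0.19), Cdh5 (0.16) and Tie1 (0.18), with sums of 191 to 322 CPM at 6-7 and 177 to 320 CPM at 10-11 somites. Of 10 tailbud markers 1 rose, Cyp26a1 (0.20), and 1 fell, Nkx1-2 (-0.11). None of the 7 surface ectoderm, 4 allantois or 4 tested trophoblast markers passed, the nearest being Krt8 (-0.13, adjusted p = 0.0518) and Krt18 (-0.11, adjusted p = 0.0614), Pitx1 (0.24, adjusted p = 0.0690) and Hand1 (-0.09, adjusted p = 0.250), and Gata3 (0.11, adjusted p = 0.0639) and Ascl2 (-0.27, adjusted p = 0.119). Sums of these 3 lists in Smchd1wt embryos were 371 to 550 and 257 to 569 CPM, 77.6 to 292 and 59.5 to 274 CPM, and 14.6 to 28.0 and 13.0 to 29.7 CPM at 6-7 and 10-11 somites. In Smchd1matΔ embryos the slope of Pou5f1 was accompanied by falls of Trh and Nepn alone among the gut endoderm markers, and no visceral endoderm marker passed there. Erythroid and blood markers (Hbb-y and Tal1) and endothelial markers (Tie1 and Cdh5) rose there too, as did Cyp26a1, and Nkx1-2 fell.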

How the data were processed

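Poly(A) RNA-seq libraries of 37 embryos were analysed. The authors, per the labels and their methods, made the libraries with an unstranded or a stranded TruSeq kit (which made which is not given in the sources used here), trimmed single-end reads with Trim Galore 0.4.4, mapped them to GRCm38.p6 with HISAT2 2.0.5 and counted genes in SeqMonk. The deposited table holds their raw counts per gene, and its gene coordinates are those used. A deposited Hox table and a list of the authors' own comparisons (p-values and fold changes) were not used. Of 35591 rows, 49 repeated an identifier and were dropped, and 26 symbols turned into dates were restored. Counts did not use strand: 189 genes covered by a gene on the other strand collected 0.976 to 1.10 times the reads predicted on that assumption (medians per embryo). No 2 libraries of a group agreed within sampling noise (chi-square per degree of freedom at least 5.12 in 42 pairs).

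Counts were tested with edgeR 4.0.16 in R 4.3.3 (quasi-likelihood, filterByExpr with a minimum count of 10, TMM, Benjamini-Hochberg over all genes tested, threshold 0.05, two-sided). Slopes used somite number as a number within a genotype, and genotype differences used somite number as a factor, each with sex where it varied. SE is the log2 value over the root of F. Exon lengths for levels per kilobase are the merged exons of GENCODE M21, in which 35333 genes have the deposited start and end. Fits were tested on simulated data. DESeq2 1.42.0 and the other settings are in the closing section. Embryos were separate samples, and p-values measure the spread between them. The 10 members and all lists were chosen with earlier results of these data known. From each list were named up to 6 genes past the threshold in the Smchd1wt slope fit, or the 2 with the smallest p-values where none passed; for each tested member the 3 genes with the highest rho; and germ cell and pluripotency genes at 0 or below the filter.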

Additional observations from a re-analysis of the deposited data

Results flagged for a closer look

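In all, 3 values stood apart by Dixon's test in the 40 sets of 4 embryos tested (10 members in 4 groups), where chance gives about 1 in 20. Dppa3 had 3.29 CPM in Smchd1wt replicate 2 at 7 somites, against 1.52 to 1.77 CPM in the other embryos, and this rests on 10 counts in the shallowest Smchd1wt library. Nanos3 had 0.697 CPM in Smchd1wt replicate 1 at 7 somites, against 0 to 0.0842 CPM, from 4 counts. Kit had 42.5 CPM in Smchd1wt replicate 1 at 10 somites, against 68.9 to 72.8 CPM, from 359 counts. No difference of an effect between genotypes passed its own test.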

How the results depend on the processing

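Pou5f1 fell past the threshold in both genotypes under every alternative run, with slopes of -0.58 to -0.49 in Smchd1wt and -0.63 to -0.49 in Smchd1matΔ embryos. The count of members called over somite number in Smchd1wt embryos was 1, 3 by DESeq2 (Pou5f1, Prdm1 and Tfap2c) and 2 without the shallowest Smchd1wt library (with Prdm1; the same fit as that without replicate 2 at 7 somites), and 1 to 2 with 1 embryo left out, where Smchd1wt replicate 1 at 6 somites, 2 and 3 at 7, 1 and 3 at 10 or 3 at 11 somites each brought Prdm1 in. In the Smchd1matΔ fit, too, leaving out shallow libraries removed 1 library. No alternative changed the count in the other fits. Pairs of members past the adjusted threshold were 0, 4 without the 2 shallowest libraries and 0 to 2 with 1 embryo left out (2 without Smchd1matΔ replicate 3 at 6 somites, 1 without Smchd1wt replicate 1 or 2 at 10 somites).

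Replicate numbers were not taken to mark paired embryos. The 16 same-numbered pairs correlated at -0.286 to 0.582 (median 0.0114), 4 of them above 0.1. The pairs at 9 somites had 0.582 and 0.342. Differently numbered pairs were not compared, so these values do not settle whether embryos of some stages were paired. With the replicate block, 1 member was called in each slope fit and 0 in the other fits, and signs turned for uncalled values: Nanog slope in Smchd1matΔ -0.0222, and genotype differences of Dppa3 -0.106, Tfap2c -0.0356 and Ifitm3 -0.0261. Without the 2 libraries rich in ribosomal RNA, uncalled values that turned were the Smchd1matΔ slopes of Tfap2c 0.0291 and Prdm14 0.0976, the Pou5f1 slope difference 0.0110, the genotype differences of Tfap2c -0.0434 and Ifitm3 -0.00422, and that of Pou5f1 at 6 to 8 somites -0.0495.

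With 1 embryo left out, signs varied for uncalled values near 0: Smchd1wt slopes of Nanog -0.0258 to 0.0586, Dnd1 -0.0609 to 0.00467 and Ifitm3 -0.0454 to 0.000665; Smchd1matΔ slopes of Nanog -0.0138 to 0.148, Tfap2c -0.171 to 0.00829, Prdm14 -0.137 to 0.190 and Ifitm3 -0.0355 to 0.0137; genotype differences of Dppa3 -0.0813 to 0.0997, Tfap2c -0.0362 to 0.190 and Ifitm3 -0.0350 to 0.0464, Prdm14 at 6 to 8 somites -0.162 to 0.892 and Pou5f1 at 9 to 11 somites -0.125 to 0.357. The cause of these changes was not tested.

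Over all genes, the edgeR counts of 1006 called in the Smchd1wt slope fit and 475 in the Smchd1matΔ fit became 1500 and 1127 by DESeq2 and 1802 and 175 in females alone, and reached 668 to 1920 and 254 to 638 with 1 embryo left out. Genes called by genotype at 6 to 8 somites were 1, but 37 by DESeq2 and 39 without the filter, and in the difference of slopes 0, but 39 without the filter. Nanog, Prdm14 and Nanos3 are limited by depth.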
